A study of Rattus norvegicus with 12 samples.

Results

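Long noncoding RNA genes that were expressed in the left ventricle of the rat 1 day after thoracotomy are described here. Members were selected on their type and on their measured level, that is, when the count table typed them as lincRNA or lncRNA and when their raw CPM (the count divided by the library's total and multiplied by 1000000), averaged over all 12 rats, reached 5. The rule left 30 genes out of 34599 in the table, all typed lincRNA, since 3090 genes carried that type and 0 carried the type lncRNA. Because the rule used the measured level, the levels that chose the members are given as a description, and 14 of the 30 had a mean raw CPM under 5 in at least 1 of the 3 groups. All 30 also passed the filter on low counts, as did 137 lincRNA genes below the threshold, out of 15101 genes tested in all.

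The rats were male Sprague-Dawley rats, and each group held 4 of them. Sham rats underwent thoracotomy with no ligation, and MI rats had their left coronary artery tied off at its anterior descending branch (LAD), which causes myocardial infarction. The iCarP+/Light+ rats underwent the same ligation and then received an injection of Chlorella, a photosynthetic alga, into the infarcted wall, an adhesive photonic patch (iCarP) over it and illumination through that patch. Injection, patch and light were given together and cannot be told apart here, since a patched group without light was not analysed. The infarct region was taken from MI and treated rats, and left ventricle from Sham rats. Nothing in the labels tells more of the origin of each sample than its group and number, and the p-values below measure the spread between these samples.

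Long noncoding RNAs are transcripts that are not translated into a known protein. Some act in the nucleus on chromatin or on the splicing machinery, some arise beside the promoter of a coding gene, and some are the precursors of a microRNA or a small nucleolar RNA (snoRNA), a class of RNA that guides the modification of ribosomal RNA. Most of those in the rat have no assigned function, and 22 of the 30 members were known only by the name of the clone they lie on. Of the others, 6 had a LOC symbol and 2 had another symbol, Tug1 and Rfwd3. Tug1 (ENSRNOG00000051135, taurine up-regulated 1) was the only member among 81 widely studied long noncoding RNAs that were looked up by symbol. Another 4 of those symbols had an entry in the table without being members, 2 of them typed as protein-coding, with mean raw CPM from 0.0147 to 37.3.

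The type given in the table did not hold for every member. Rfwd3 carried the description of a ring finger protein and is protein-coding in RefSeq, the description of LOC100912578 was that of a mitochondrial stress-70 protein-like gene, and that of LOC102549506 was that of a kelch-like protein 3-like gene. Reads of these 3 may be shared with coding genes of similar sequence, which was not tested, and their values are uncertain. Only 4 members had a RefSeq entry under the same symbol, and 3 of those entries, Tug1, LOC102549726 and LOC100909912, were long noncoding RNA genes.

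The members lay on 16 chromosomes, with 14 on the + strand and 16 on the - strand (positions are those of the deposited table, build rn6 per the submitters' notes). Their listed lengths ran from 447 to 5614 bases with a median of 2304, against a median of 2468 over 10717 protein-coding genes that reached the same mean raw CPM. In 6 members the listed length equalled the whole span of the gene, so that no intron was annotated. No other gene of the table overlapped 25 of the members.

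A pair of members lay against a microRNA gene, and the products of those microRNA genes are shown because they give 2 otherwise unnamed transcripts a place. AABR07038983.1 (ENSRNOG00000051216, chromosome X, 65367912 to 65368639, + strand) overlapped the last 10 bases of Mir223 on the same strand. AABR07072236.1 (ENSRNOG00000062181, chromosome 11, 61994181 to 61995549, - strand) lay 478 bases from Mir568 on the same strand. miR-223 is known from myeloid cells, where it is abundant in neutrophils. The mature sequences below are from RefSeq, 5′ to 3′, with the seed (bases 2 to 8), which pairs with target messages, in capitals.
rno-miR-223-3p: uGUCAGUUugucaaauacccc
rno-miR-223-5p: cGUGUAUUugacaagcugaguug
rno-miR-568: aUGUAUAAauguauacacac
The 3 seeds differ from one another. These libraries were not made for mature microRNAs, so no value below is a level of a mature microRNA.

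The promoter window of LOC102549726 (ENSRNOG00000054031, chromosome 20, 4871264 to 4873982, - strand) is shown because this gene rose after infarction next to a heat shock gene. The promoter window of Tug1 is shown because Tug1 stayed near 30 CPM in every group. Both run from 250 bases before to 50 bases after the start that RefSeq gives (build GRCr8, on its + strand for LOC102549726 and its - strand for Tug1), with the letters TATAAA in capitals. Whether transcription began at these listed starts in the samples was not tested, so a window may not hold the promoter in use.
LOC102549726: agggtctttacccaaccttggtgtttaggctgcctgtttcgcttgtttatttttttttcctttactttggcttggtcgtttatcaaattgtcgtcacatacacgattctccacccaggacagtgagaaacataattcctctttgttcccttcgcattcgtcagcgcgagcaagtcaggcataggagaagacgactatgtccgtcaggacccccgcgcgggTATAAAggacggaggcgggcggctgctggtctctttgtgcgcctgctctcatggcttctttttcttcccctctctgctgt
Tug1: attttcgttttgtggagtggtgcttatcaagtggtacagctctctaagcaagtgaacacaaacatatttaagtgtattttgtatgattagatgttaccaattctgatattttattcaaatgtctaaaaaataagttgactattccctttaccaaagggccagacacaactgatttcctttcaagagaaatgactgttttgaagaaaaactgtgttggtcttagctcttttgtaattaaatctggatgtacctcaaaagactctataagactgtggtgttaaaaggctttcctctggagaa
TATAAA on the sense strand, the core letters of a TATA box, began 30 bases before the start of LOC102549726 and was not in the Tug1 window, and 8.80% of 33469 promoter windows of the same length held it on that strand. GAANNTTC, letters of the kind found in heat shock elements and the same on both strands, was in neither window and in 8.59% of all windows. The LOC102549726 window was 50.3% G or C and the Tug1 window 34.0%, against a median of 51.7% over all windows.

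The members took between 0.0342% and 0.0997% of the counts of a library. Libraries held 14064414 to 17136958 counts, so that 3 counts stood at 0.175 to 0.213 CPM. Mitochondrial genes took 22.8% to 28.9% of the counts in Sham rats, 8.52% to 11.5% in MI rats and 7.14% to 14.2% in treated rats. Levels below are therefore CPM scaled by trimmed mean of M-values (TMM) factors, which averaged 0.814, 1.22 and 1.01 in those groups, and fold changes are log2 values from edgeR's quasi-likelihood fit with p-values adjusted over all genes tested. The 10 cardiomyocyte marker genes checked summed to between 52800 and 56700 CPM in Sham rats but to between 2630 and 6920 CPM in the infarcted groups, and 8 leukocyte marker genes summed to 238 to 418 CPM in Sham rats, 3940 to 7030 in MI rats and 6160 to 11200 in treated rats. The RNA of these markers thus moved with both comparisons against Sham. In Sham, MI and treated rats, 7 fibroblast marker genes summed to 8570 to 10700, 2720 to 3140 and 1410 to 3050 CPM. From Sham to MI, 5 of them were lower and 1 higher. For 7 endothelial marker genes the sums were 1680 to 1890, 822 to 1190 and 1050 to 1200 CPM. For 6 red blood cell marker genes they were 7860 to 10600, 2500 to 6930 and 6180 to 17500 CPM. In bulk tissue, fewer cells of a type and less RNA per cell cannot be told apart, and the part of the cell types in the results below was not tested.

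**Figure D1:**
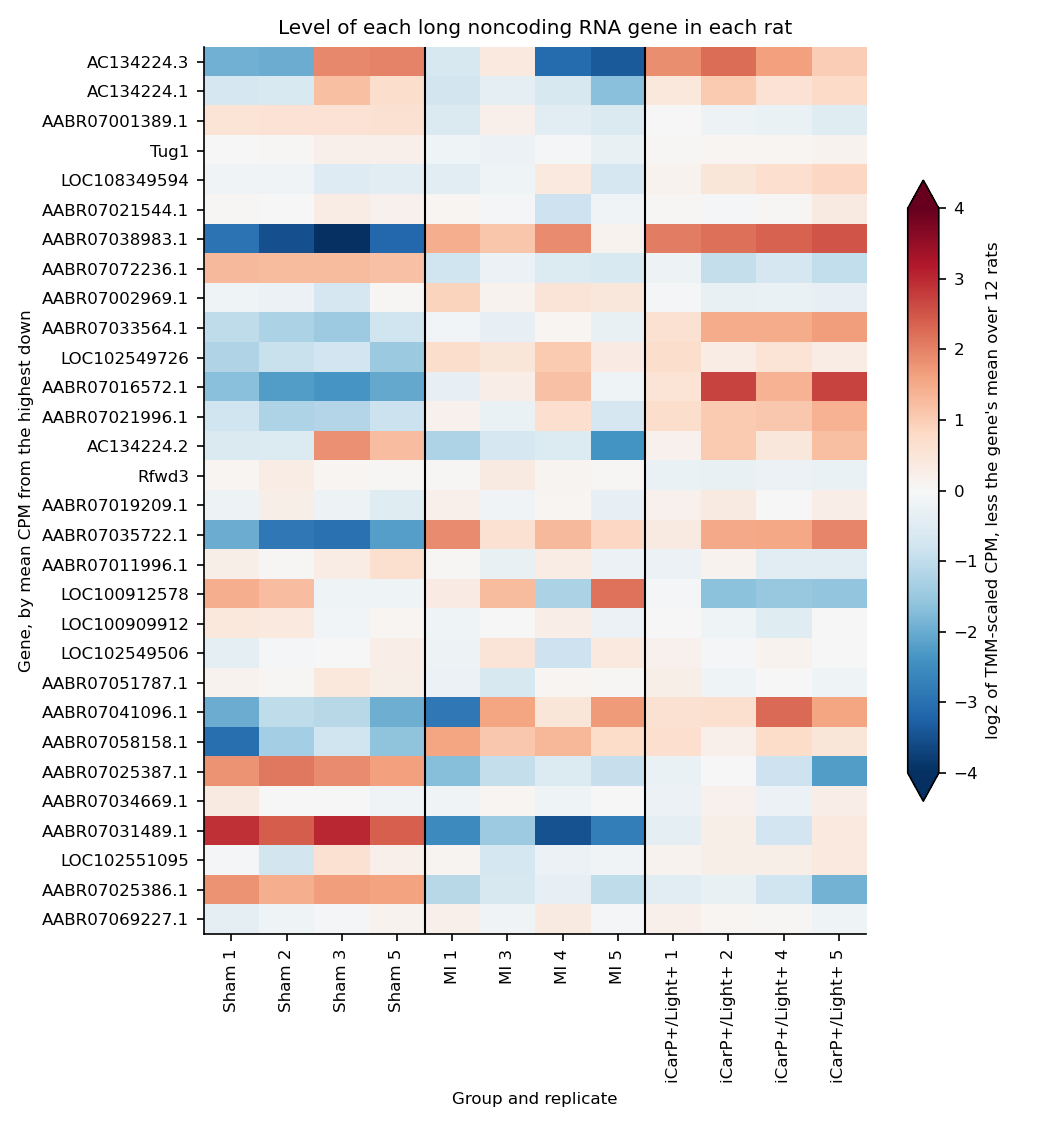
Level of each of the 30 long noncoding RNA genes (vertical, from the highest mean CPM down) in each of the 12 rats (horizontal, by group), as the log2 of TMM-scaled CPM less the gene's mean over the rats. AABR07038983.1 and AABR07035722.1 were low in every Sham rat, AABR07031489.1 was high in every Sham rat, and the AC134224 genes split the Sham rats into replicates 1 and 2 against 3 and 5.

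By level per length, the highest member was AC134224.3 (ENSRNOG00000062158, chromosome 1, 221158098 to 221158792, - strand) with a mean over the 12 rats of 261 CPM per kilobase. It was followed by AABR07001389.1 at 37.8, AABR07002969.1 at 34.3, AC134224.1 at 33.4, AABR07038983.1 at 26.5 and AABR07019209.1 at 22.3 CPM per kilobase. This order pools the groups, and below AC134224.3, which was highest in each group, it held in none of them. In mean CPM per kilobase, AABR07038983.1 was at 1.04 in Sham, 26.1 in MI and 52.3 in treated rats, and AABR07025387.1 was at 35.4 in Sham. Of the 30 members, 12 were under 10 mean raw CPM. The median coefficient of variation of the members between rats of a group was 18.7%, 24.9% and 18.7% in Sham, MI and treated rats, and that of the coding genes at 5 or more mean raw CPM was 11.1%, 16.1% and 14.6%. The levels of both sets were not matched, with a median of 12.7 mean raw CPM for the members and 33.5 for the coding genes, and the part of counting noise in these values was not tested. The members just inside the threshold were LOC102551095, AABR07025386.1 and AABR07069227.1 at 5.41, 5.39 and 5.08 mean raw CPM, and the lincRNA genes just outside were AABR07051515.1, AABR07035273.1 and AABR07073038.2 at 4.81, 4.59 and 4.49.

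Infarction against Sham came first. Of the 30 members, 9 were higher and 8 lower in MI rats than in Sham rats at an edgeR adjusted p under 0.05, while 30.2% of all genes tested were higher and 33.6% lower. The members' share was close to that background in both directions. With libraries scaled by total counts alone, which moved the median log2 fold change of all genes to 0.52, 16 members were higher and 5 lower. Their median log2 fold change was -0.05, against -0.06 over all genes and -0.02 over the protein-coding genes at 5 raw CPM or more. The median of the sizes of the log2 fold changes, taken without their signs, was 0.92 for the members and 0.75 for all genes.

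The member that rose most was AABR07038983.1, the transcript that begins at Mir223. It was found at 1.01, 0.683, 0.455 and 0.885 CPM in the Sham rats, at 21.5, 17.0, 28.8 and 8.67 CPM in the MI rats and at 32.0, 35.8, 39.9 and 44.6 CPM in the treated rats. The 3 groups did not overlap, with Sham lowest and treated rats highest. The change from Sham to MI was 4.63 ± 0.37 (SE; edgeR adjusted p = 4.07e-07) and that from MI to treated rats 1.00 ± 0.28 (adjusted p = 0.0302) on the log2 scale, each with an exact permutation p of 0.0286, 2-sided, the smallest that 4 rats against 4 allow. The second step lost its call when MI replicate 1 or 3 or treated replicate 2, 4 or 5 was left out, with log2 fold changes of 0.84 to 1.07 and adjusted p between 0.0507 and 0.117, and also with total counts alone (0.75, adjusted p = 0.0516) and in a fit of the compared groups alone (0.96, adjusted p = 0.0755). The Mir223 gene itself held at most 0.0759 CPM in a Sham rat, which is under 3 counts, between 1.17 and 3.02 CPM in MI rats and between 6.01 and 8.51 CPM in treated rats. Since the genes share 10 bases, reads over the junction could be counted for either.

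Within 1 megabase of AABR07038983.1, 7 protein-coding genes were tested, and the 3 whose pattern over the 12 rats was most like it were Msn (moesin, which links actin to the membrane; Pearson r = 0.96), Vsig4 (a macrophage complement receptor, 2212 bases away on the other strand; r = 0.80) and Las1l (r = 0.71). These r values span the 3 groups, so they largely restate that the genes differ between the groups. Msn averaged 517, 1260 and 1750 CPM in Sham, MI and treated rats. Vsig4 was scarce, at 0.111, 1.44 and 3.04 CPM.

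AABR07035722.1 (ENSRNOG00000056359, chromosome 12, 21412538 to 21420169, + strand) was the second to rise. Its values were 1.37, 0.751, 0.683 and 1.18 CPM in Sham rats, 20.3, 8.36, 13.4 and 9.73 CPM in MI rats and 6.95, 15.5, 15.7 and 21.0 CPM in treated rats. Every infarcted rat was above every Sham rat, and MI and treated rats overlapped. The log2 fold change from Sham was 3.69 ± 0.41 in MI rats (edgeR adjusted p = 5.12e-06) and 3.88 ± 0.41 in treated rats (adjusted p = 2.90e-06).

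AABR07058158.1 (ENSRNOG00000062170), which spans 221126 bases of chromosome 7 (102648881 to 102870006, + strand), begins 57641 bases from Myc on the same strand. It was at 0.506, 1.57, 2.35 and 1.33 CPM in Sham rats, at 12.1, 8.58, 10.1 and 6.70 CPM in MI rats and at 6.51, 4.71, 6.77 and 5.63 CPM in treated rats. Sham rats did not overlap the others, whereas 1 MI rat fell within the range of the treated rats. The gene rose by 2.70 ± 0.35 from Sham to MI on the log2 scale (edgeR adjusted p = 1.82e-05), and the step from MI to treated rats was not called (adjusted p = 0.203). Myc, which encodes a transcription factor of cell growth, had means of 6.83, 105 and 85.4 CPM in Sham, MI and treated rats.

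AABR07041096.1 on chromosome X rose by 2.41 ± 0.72 in MI (edgeR adjusted p = 0.0102; exact permutation p = 0.171), but it was at 0.479, 10.4, 4.87 and 11.3 CPM in the MI rats and at 0.867 to 1.71 CPM in Sham rats. MI replicate 1 was thus below every Sham rat. With limma-voom this call was lost, at 1.67 and an adjusted p of 0.229. In treated rats, at 5.32, 5.44, 16.7 and 10.4 CPM, it was above every Sham rat (log2 fold change 2.90 ± 0.73, adjusted p = 0.00329).

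LOC102549726, whose promoter window is shown above, rose by 1.72 ± 0.20 (edgeR adjusted p = 7.37e-06). It was at 5.35, 6.62, 7.29 and 4.42 CPM in Sham, 19.9, 17.2, 25.5 and 15.4 CPM in MI and 19.9, 15.3, 17.9 and 15.1 CPM in treated rats. Both infarcted groups lay above Sham and overlapped each other. The span of this gene holds 2 snoRNA genes on its own strand, RF00282 and RF00276, which were at or near 0 in all libraries. Whether these libraries capture snoRNAs was not tested, so those values do not show that the snoRNAs were absent. Spans of 4 coding genes also run across it, among them RT1-CE4 and RT1-CE7 of the major histocompatibility complex on the same strand, and reads of overlapping genes may not be told apart. Hspa1b, which encodes an inducible heat shock protein of the Hsp70 family, lies 3342 bases away on the same strand and averaged 0.865, 13.8 and 20.5 CPM in the 3 groups.

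The remaining members that rose were AABR07002969.1, AABR07016572.1, AABR07021996.1 and AABR07033564.1. AABR07002969.1 on chromosome 1 was at 14.2, 13.6, 10.2 and 16.7 CPM in Sham, 29.9, 17.8, 23.3 and 22.0 CPM in MI and 15.5, 13.1, 13.4 and 13.0 CPM in treated rats, so the MI rats stood alone. Its log2 fold changes were 0.77 ± 0.18 from Sham to MI (edgeR adjusted p = 0.00197) and -0.76 ± 0.18 from MI to treated rats (adjusted p = 0.011), comparisons that share the MI rats. The other 3 rose by 2.42 ± 0.50, 1.06 ± 0.26 and 0.95 ± 0.22, in that order (adjusted p = 0.000961, 0.00279 and 0.00207), and their values in each rat are given with the comparison of MI and treated rats.

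**Figure D2:**
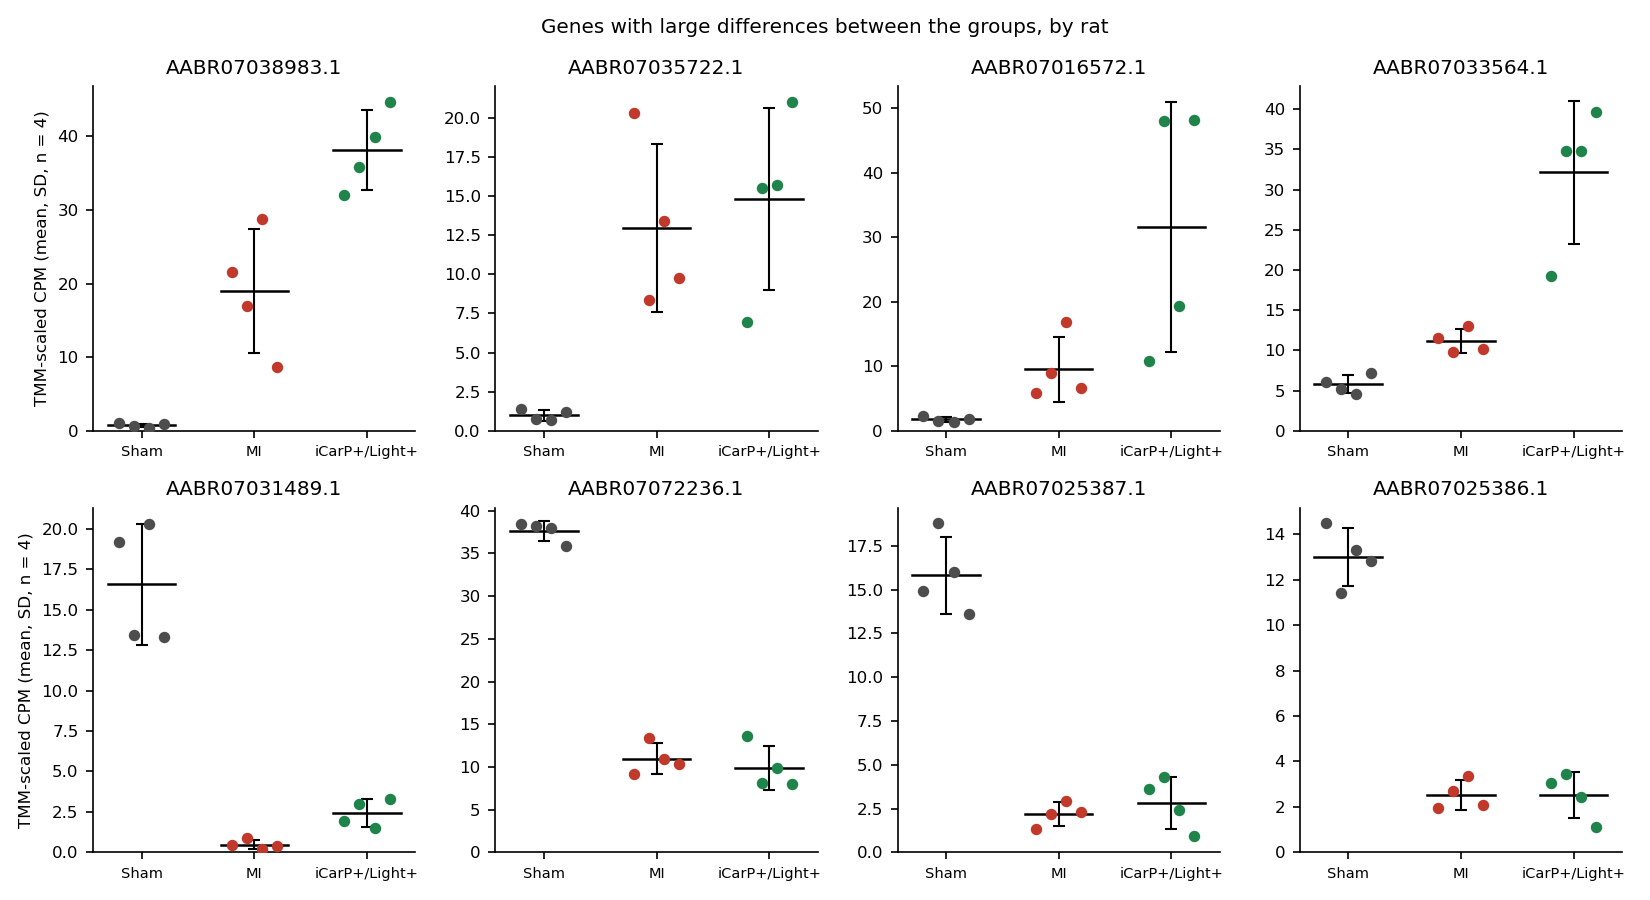
TMM-scaled CPM of 8 long noncoding RNA genes with large differences between the groups (1 point a rat, line and bar the mean and SD of 4 rats). Of the upper 4 genes, AABR07035722.1 averaged 0.997 CPM in Sham and 12.9 and 14.8 CPM in MI and treated rats, and the lower 4 were highest in Sham, with AABR07031489.1 at 16.6 CPM against 0.486 and 2.42.

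Among the 8 members that fell, AABR07031489.1 (ENSRNOG00000052389, chromosome 18, 15553975 to 15558178, - strand) fell furthest. It was at 19.2, 13.4, 20.3 and 13.3 CPM in Sham rats, at 0.431, 0.917, 0.224 and 0.372 CPM in MI rats and at 1.94, 2.96, 1.49 and 3.31 CPM in treated rats. The MI values rest on 4 to 17 counts a rat. The 3 groups did not overlap, and the treated rats lay between the others. Its log2 fold changes were -5.07 ± 0.39 from Sham to MI (edgeR adjusted p = 2.99e-07), 2.30 ± 0.38 from MI to treated rats (adjusted p = 0.00129) and -2.77 ± 0.33 from Sham to treated rats (adjusted p = 9.51e-06). Of 20 coding genes tested within 1 megabase, Rprd1a (r = 0.95), AABR07031491.2 (r = 0.89) and Dsg2 (desmoglein 2, of the junctions between cardiomyocytes; r = 0.84) were most like it over the 12 rats, again across the groups. Dsg2 averaged 67.9, 28.4 and 27.2 CPM, so it did not share the higher level of treated over MI rats. Ttr, the nearest coding gene tested, lies 13798 bases away on the same strand (r = 0.77). It averaged 14.9, 2.85 and 2.0 CPM in Sham, MI and treated rats.

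A pair of fallen members had Hand2, which encodes a transcription factor of heart development, as the nearest coding gene tested. AABR07025387.1 (ENSRNOG00000052518, chromosome 16, 36374593 to 36388331, + strand) lies 1047 bases from Hand2 on the opposite strand, and AABR07025386.1 (ENSRNOG00000052230, 36294631 to 36297382, - strand) lies 74107 bases from it on the same strand. AABR07025387.1 was at 14.9, 18.8, 16.0 and 13.6 CPM in Sham, 1.34, 2.21, 2.96 and 2.29 CPM in MI and 3.63, 4.29, 2.44 and 0.914 CPM in treated rats. AABR07025386.1 was at 14.5, 11.4, 13.3 and 12.8 CPM in Sham, 1.96, 2.70, 3.36 and 2.07 CPM in MI and 3.07, 3.44, 2.44 and 1.13 CPM in treated rats. Sham rats were above all infarcted rats at both loci, and MI and treated rats overlapped. The genes fell by 2.84 ± 0.37 and by 2.36 ± 0.29 from Sham to MI on the log2 scale (edgeR adjusted p = 2.04e-05 and 1.27e-05). Hand2 went from a mean of 9.95 CPM in Sham to 2.64 in MI and 2.38 in treated rats.

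AABR07072236.1, the transcript beside Mir568, was at 38.4, 38.2, 38.0 and 35.9 CPM in Sham, 9.14, 13.4, 10.9 and 10.4 CPM in MI and 13.6, 8.10, 9.82 and 8.02 CPM in treated rats. Sham rats stood far above the rest and were nearly alike, with an SD that was a small part of their mean. The gene fell by 1.78 ± 0.17 in MI (edgeR adjusted p = 1.76e-06) and by 1.93 ± 0.17 in treated rats against Sham (adjusted p = 7.71e-07). The Mir568 gene was at 4.26 to 6.04 CPM in Sham, at 0.671 to 2.11 CPM in MI and at 0.474 to 2.00 CPM in treated rats. The member lies inside the listed span of Gramd1c (61605937 to 62634803), on the opposite strand, which averaged 0.442, 1.21 and 1.23 CPM. That span also covers Zbtb20, the nearest tested coding gene that does not overlap the member. Zbtb20 lies 19376 bases away on the member's strand and averaged 8.02, 4.01 and 4.93 CPM.

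AABR07001389.1 (ENSRNOG00000053113, chromosome 1, 42133308 to 42134374, + strand) lies 1761 bases from Myct1, a gene known from endothelial cells, on the same strand. It was at 55.8, 57.6, 57.5 and 58.6 CPM in Sham, 25.5, 43.9, 28.4 and 25.9 CPM in MI and 38.6, 33.1, 31.8 and 27.6 CPM in treated rats. It fell by 0.89 ± 0.17 in MI (edgeR adjusted p = 0.000381) and by 0.81 ± 0.17 in treated rats against Sham (adjusted p = 0.000768). The first of these was lost when libraries were scaled by total counts alone, with an adjusted p of 0.121, a scaling that moved the median of all genes to 0.52. Myct1 averaged 36.0, 17.3 and 24.2 CPM, and 6 of 7 endothelial marker genes were lower in MI than in Sham.

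Tug1, a nuclear and cytoplasmic long noncoding RNA found in many tissues, changed little. It was at 29.8, 31.0, 35.0 and 34.5 CPM in Sham, 27.0, 25.8, 28.9 and 24.4 CPM in MI and 31.4, 31.8, 31.8 and 33.2 CPM in treated rats. MI rats were below all others, by a small margin. From Sham to MI it moved by -0.30 ± 0.09 (edgeR adjusted p = 0.0133). The call was lost without treated replicate 5 (adjusted p = 0.0972), with no filter on low counts (0.0543), under a stricter minimum of 10 counts per sample (0.0551) and in a fit of the compared groups alone (-0.16, adjusted p = 0.181). With total counts alone it was called in the opposite direction, at 0.28 (adjusted p = 0.0121) where the median of all genes was 0.52. The step from MI to treated rats was not called (adjusted p = 0.0743). Morc2, 1505 bases away on the opposite strand, averaged 31.3, 28.5 and 29.2 CPM and was not called in any comparison.

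**Figure D3:**
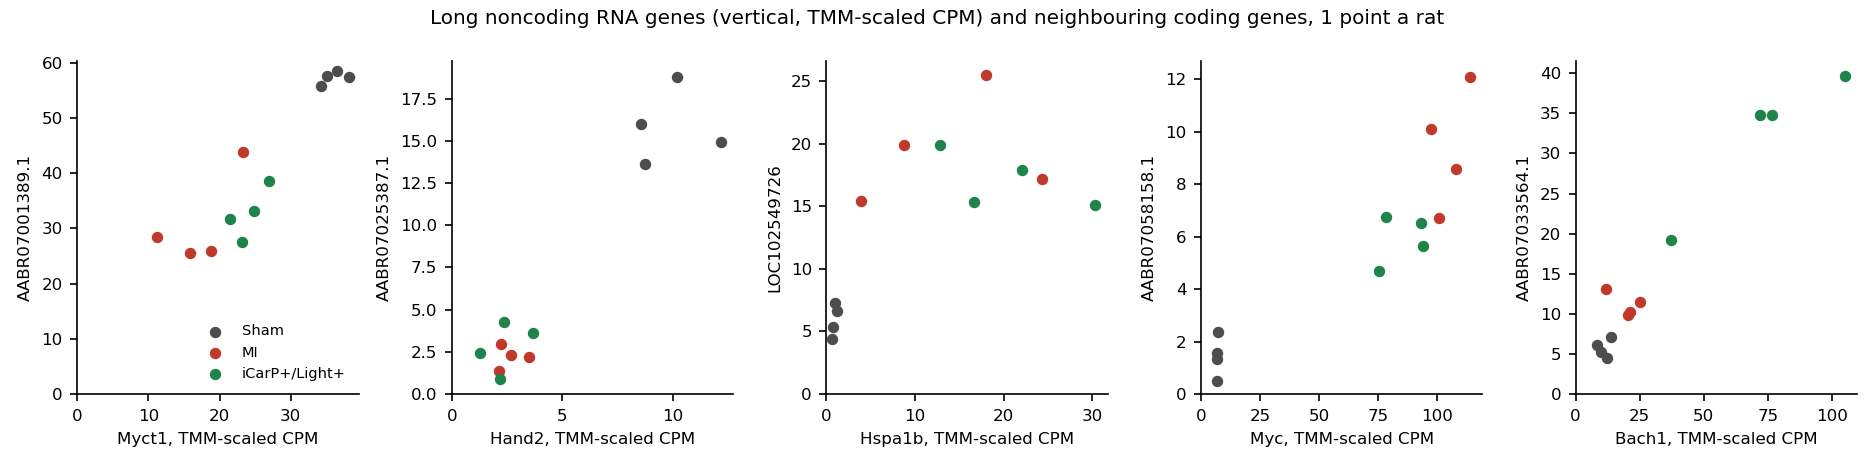
TMM-scaled CPM of 5 long noncoding RNA genes (vertical) against a coding gene in their neighbourhood (horizontal), 1 point a rat, coloured by group. Most of the relation lies between groups, as for AABR07025387.1 and Hand2, where all Sham rats were high in both, while for AABR07033564.1 and Bach1 the treated rats also lay apart from one another, the lowest at 19.2 and 37.3 CPM.

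The treated rats were then compared with the MI rats. Of the 30 members, 8 were higher and 3 lower in treated rats, which is 26.7% and 10% of the members, while 11.6% of all genes tested were higher and 2.01% lower. Among the coding genes at 5 raw CPM or more those shares were 13.1% and 2.30%. The median log2 fold change of the members was 0.21, against 0.01 over all genes. Beside these, 5 of 8 leukocyte and 4 of 6 red blood cell marker genes were higher in treated than in MI rats, and the part of these cells was not tested. With 30 members, and with 2 of the 8 at the shared AC134224 locus, these shares are a description. Without the 3 members that carry protein-coding names or descriptions, 1 was lower. A fit of the compared groups alone gave 5 higher and 1 lower, a minimum of 10 counts in each library, which fewer members pass, gave 5 higher, and a log2 fold change of at least 1 in size left 1 lower. With the list drawn at 3 raw CPM or more, 9 of 51 were higher (17.6%) and 4 lower (7.84%). With total counts alone 6 were higher and 4 lower, as the median of all genes moved to -0.25. Leaving out single rats moved the count of higher members between 2 and 9, the lowest without treated replicate 5, and also under 6 without MI replicate 1, 3 or 5 or treated replicate 2 or 4 (3, 4, 4, 3 and 5 members). The count of lower members fell to 1 without Sham replicate 1, MI replicate 3 or treated replicate 2 or 4.

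**Figure D4:**
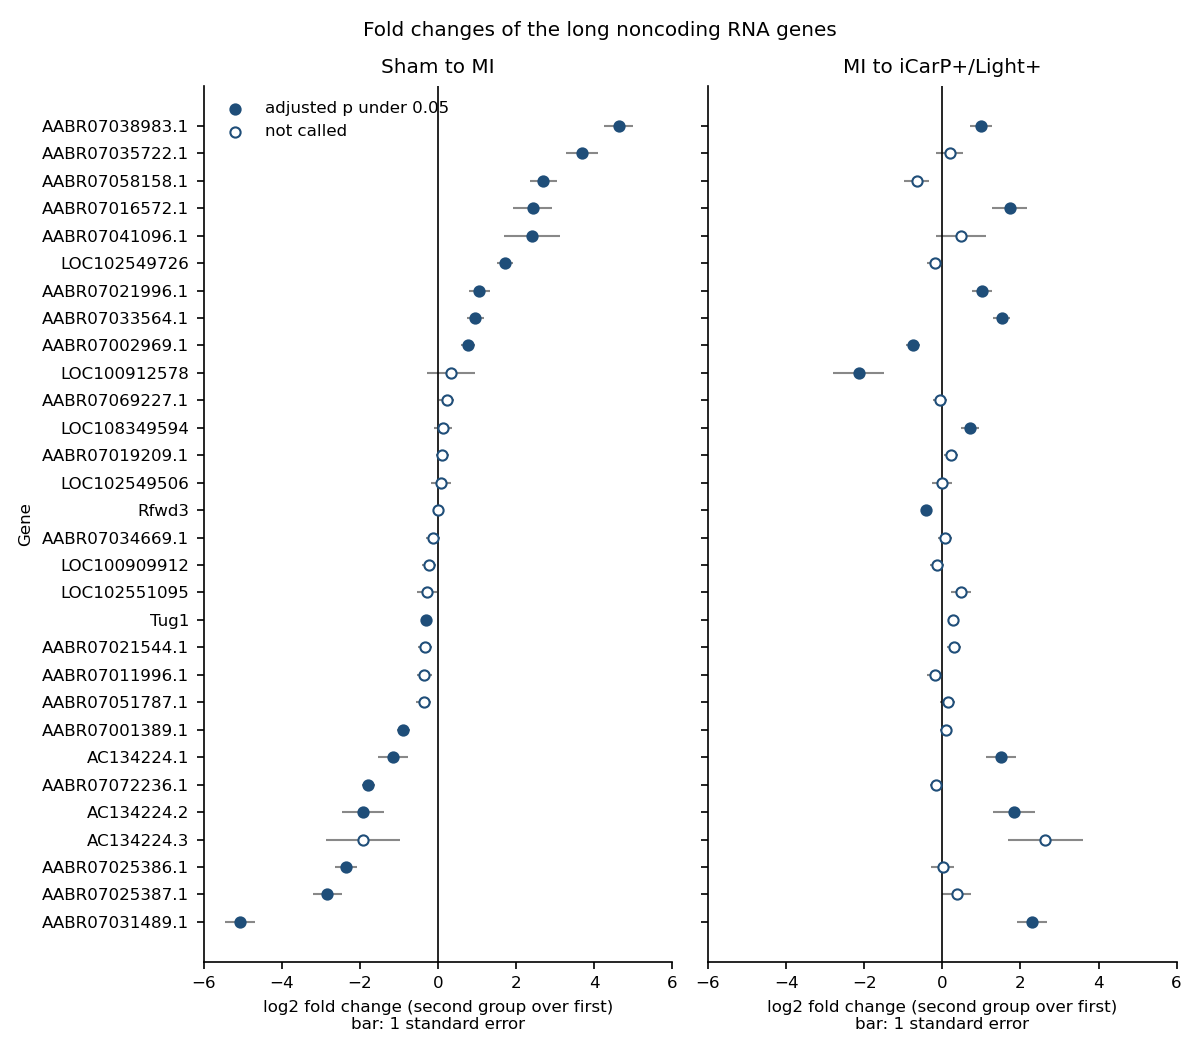
log2 fold change of each of the 30 members from Sham to MI (left) and from MI to iCarP+/Light+ (right), with bars of 1 standard error and filled points for an edgeR adjusted p under 0.05. AABR07031489.1 was lowest on the left at -5.07 and stood at 2.30 on the right, and AC134224.3 had the widest bars and was not called on either side; the panels share the MI rats.

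AABR07033564.1 (ENSRNOG00000059467, chromosome 11, 27598719 to 27611811, + strand) was called from MI to treated rats under all 9 other settings of the fit and whichever of the 12 rats was left out. It was at 6.14, 5.26, 4.55 and 7.15 CPM in Sham, 11.5, 9.87, 13.1 and 10.2 CPM in MI and 19.2, 34.8, 34.8 and 39.7 CPM in treated rats. The groups did not overlap. It was higher in treated than in MI rats by 1.52 ± 0.21 (edgeR adjusted p = 0.000372) and than in Sham rats by 2.47 ± 0.23 (adjusted p = 8.03e-07) on the log2 scale. The nearest coding gene tested, 199877 bases away on the same strand, was Bach1, a repressor of heme oxygenase and other genes of heme and iron handling. Bach1 averaged 11.0, 19.7 and 72.8 CPM, and treated replicate 1 was the lowest treated rat for both genes, at 19.2 CPM for the member and 37.3 CPM for Bach1.

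AABR07016572.1 (ENSRNOG00000061005, chromosome 14, 104708648 to 104715786, + strand) spread more widely. It was at 2.31, 1.57, 1.44 and 1.77 CPM in Sham, 5.89, 8.90, 16.8 and 6.60 CPM in MI and 10.8, 48.0, 19.4 and 48.1 CPM in treated rats. Treated replicates 2 and 5 were far above the other treated rats, and treated replicate 1 was below 1 MI rat. The log2 fold change was 1.73 ± 0.45 over MI (edgeR adjusted p = 0.0204; exact permutation p = 0.0571) and 4.15 ± 0.52 over Sham (adjusted p = 1.32e-05). The first was lost without MI replicate 1, 3 or 5 or treated replicate 2 or 5, at 1.36 to 1.69 and adjusted p of 0.0527 to 0.0887, and in a fit of the compared groups alone (1.68, adjusted p = 0.0609). Among 8 coding genes tested within 1 megabase, Aftph (r = 0.95), Rab1a (r = 0.85) and Actr2 (r = 0.85), genes of vesicle traffic and actin branching, were most like it across the groups.

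AABR07021996.1 on chromosome 13 (ENSRNOG00000051880, 101936929 to 101974632, + strand) was at 6.72, 4.91, 5.09 and 6.34 CPM in Sham, 13.0, 9.71, 18.3 and 7.23 CPM in MI and 18.9, 23.7, 24.5 and 30.1 CPM in treated rats. The groups did not overlap. It was 1.01 ± 0.25 above MI on the log2 scale (edgeR adjusted p = 0.0151), a call lost, among the fits that left out a rat, without treated replicate 5 (0.81, adjusted p = 0.0785).

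LOC108349594 lies 2233 bases from Chd2, a chromatin remodeller, on the same strand of chromosome 1 (134873400 to 134887841, - strand). It was at 22.8, 23.1, 17.7 and 18.7 CPM in Sham, 18.6, 22.4, 33.3 and 15.7 CPM in MI and 27.6, 35.4, 40.1 and 44.5 CPM in treated rats. One MI rat, replicate 4, lay within the range of the treated rats, and all Sham rats lay below that range. The log2 fold change was 0.71 ± 0.22 over MI (edgeR adjusted p = 0.0446; exact permutation p = 0.0571) and 0.84 ± 0.22 over Sham (adjusted p = 0.00409). The call over MI held in only 2 of the 12 fits that left out a rat, those without MI replicate 4 or treated replicate 1, and otherwise the value was 0.53 to 0.73 with adjusted p from 0.0545 to 0.195. It was also lost with DESeq2 size factors, total counts alone, at least 10 counts in every sample, no mitochondrial genes or the compared groups alone, at 0.46 to 0.67 and adjusted p from 0.0599 to 0.114. Chd2 averaged 60.5, 47.4 and 81.9 CPM and was higher in treated than in MI rats by 0.79 ± 0.15 (adjusted p = 0.00286).

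AC134224.1, AC134224.2 and AC134224.3 lie in a row on the - strand of chromosome 1, between 221151827 and 221158792, with gaps of 1283 and 1188 bases. AC134224.3 and AC134224.1 have no annotated intron. Whether the 3 are separate genes or pieces of 1 transcript cannot be read from the table, which gives no common name to them.

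AC134224.3 was the most abundant member and varied most in Sham and MI rats, with coefficients of variation of 101% and 105%, against 34.1% in treated rats. It was at 24.1, 23.2, 345 and 360 CPM in Sham replicates 1, 2, 3 and 5, at 58.6, 119, 10.9 and 8.88 CPM in MI replicates 1, 3, 4 and 5 and at 330, 435, 284 and 182 CPM in treated replicates 1, 2, 4 and 5. Sham rats fell into a low and a high pair, the high pair lay in the range of the treated rats, and every treated rat was above every MI rat. Its log2 fold change of 2.64 ± 0.97 from MI to treated rats was not called (edgeR adjusted p = 0.0991; exact permutation p = 0.0286), nor was that of -1.93 ± 0.95 from Sham to MI (adjusted p = 0.0919). The former was called with limma-voom (3.34, adjusted p = 0.0449) and without Sham replicates 3 and 5 (adjusted p = 0.0406) or 1 and 2 (adjusted p = 0.0343). It was 2.29 to 3.55 with 1 rat left out, and not called in any of those 12 fits (adjusted p 0.0507 to 0.192). The latter ran from -2.84 to -1.41 with 1 rat left out and was called in 3 of the 12 fits that left out a rat, those without Sham replicate 1, Sham replicate 2 or MI replicate 3. Without Sham replicates 3 and 5 together it was 1.16 (adjusted p = 0.292), opposite in sign, and without Sham replicates 1 and 2 together it was -2.83 (adjusted p = 0.0113).

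The same Sham rats stood apart at the neighbouring loci. AC134224.1 was at 41.8, 43.2, 152 and 108 CPM in Sham, 40.0, 51.5, 43.1 and 20.8 CPM in MI and 88.8, 139, 99.4 and 113 CPM in treated rats. AC134224.2 was at 7.66, 7.78, 40.0 and 27.0 CPM in Sham, 4.84, 7.17, 7.78 and 2.18 CPM in MI and 12.8, 23.7, 15.4 and 26.2 CPM in treated rats. Treated rats were above all MI rats at both, and Sham rats overlapped both groups. After each value was centred on its group's mean, Pearson's r over the 12 rats was 0.97 between AC134224.1 and AC134224.2 and 0.85 between AC134224.3 and AC134224.1. The ratio of AC134224.3 to AC134224.1 was not constant, however, running from 0.252 in MI replicate 4 to 3.72 in treated replicate 1.

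From MI to treated rats, AC134224.1 rose by 1.50 ± 0.39 (edgeR adjusted p = 0.0214) and AC134224.2 by 1.83 ± 0.54 (adjusted p = 0.0384). Both calls were lost without MI replicate 1 or 5 or treated replicate 2 or 5, that of AC134224.2 also without MI replicate 3 or treated replicate 4, with adjusted p from 0.0515 to 0.118 and values from 1.29 to 1.98. From Sham to MI they fell by 1.15 ± 0.39 (adjusted p = 0.0205; exact permutation p = 0.171) and by 1.91 ± 0.54 (adjusted p = 0.00731; exact permutation p = 0.0571), and AC134224.1 lost that call without Sham replicate 3 or 5 or MI replicate 5 (adjusted p = 0.054 to 0.0967; values from -1.38 to -0.72 over all left-out rats). It also lost it with total counts alone (-0.56, adjusted p = 0.189) and in a fit of the compared groups alone (-1.02, adjusted p = 0.0596). Without Sham replicates 3 and 5 together those falls were not called, at -0.03 for AC134224.1 (adjusted p = 0.945) and -0.39 for AC134224.2 (adjusted p = 0.478). Taken as 1 gene by summing the counts, the locus had a log2 fold change of 2.22 ± 0.67 from MI to treated rats (adjusted p = 0.0436) and of -1.66 ± 0.66 from Sham to MI (adjusted p = 0.0417).

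**Figure D5:**
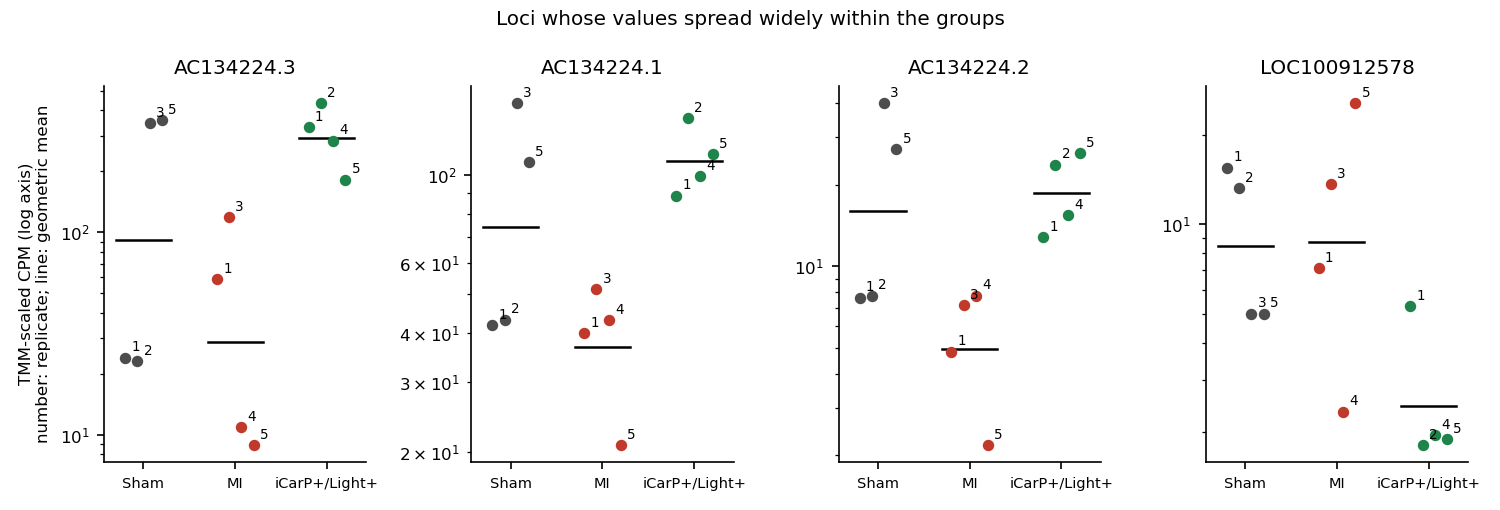
TMM-scaled CPM on a log axis for the 3 AC134224 genes and LOC100912578, 1 point a rat with its replicate number and a line at the geometric mean. Sham replicates 1 and 2 sat at 24.1 and 23.2 CPM for AC134224.3 and replicates 3 and 5 at 345 and 360 CPM, and LOC100912578 had those pairs in the opposite order, at 15.5 and 13.2 against 5.01 and 5.01 CPM.

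The 3 members that were lower in treated than in MI rats were LOC100912578, AABR07002969.1, described above, and Rfwd3. LOC100912578 was at 15.5, 13.2, 5.01 and 5.01 CPM in Sham, 7.13, 13.6, 2.35 and 25.5 CPM in MI and 5.32, 1.81, 1.96 and 1.90 CPM in treated rats. The MI rats spread over the whole range, and MI replicate 4 lay among the treated rats. Its log2 fold change of -2.14 ± 0.65 (edgeR adjusted p = 0.0463; exact permutation p = 0.0571) held in 3 of the 12 fits that left out a rat, those without MI replicate 1, MI replicate 4 or treated replicate 1, and in the others it was -2.14 to -1.48 with adjusted p from 0.0501 to 0.146. It was also lost with limma-voom (-1.82, adjusted p = 0.175) and in a fit of the compared groups alone (-2.17, adjusted p = 0.0665). Rfwd3 was at 13.9, 16.1, 14.0 and 13.6 CPM in Sham, 13.7, 16.7, 14.1 and 13.5 CPM in MI and 11.0, 10.6, 11.1 and 11.0 CPM in treated rats. The treated rats were nearly alike and below all others, and the log2 fold change from MI was -0.41 ± 0.12 (adjusted p = 0.0356). That call was lost in 6 of the 12 fits that left out a rat, at -0.44 to -0.34 (adjusted p 0.0501 to 0.106). Those were the fits without Sham replicate 1, MI replicate 1 or 3 or treated replicate 1, 2 or 4. The call was also lost with no filter on low counts (-0.42, adjusted p = 0.0749) and in a fit of the compared groups alone (-0.45, adjusted p = 0.0595).

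Treated against Sham rats, a comparison that shares rats with both others, gave 9 higher and 8 lower members, while 33.5% of all genes tested were higher and 33.0% lower, and with total counts alone 12 were higher and 5 lower. The median log2 fold change was 0.04 for the members and 0.02 for all genes. The highest were AABR07038983.1 at 5.63 ± 0.38 (edgeR adjusted p = 7.32e-08) and AABR07016572.1 at 4.15 ± 0.52, and the lowest were AABR07031489.1 at -2.77 ± 0.33 and AABR07025387.1 at -2.48 ± 0.37. LOC102549726, AABR07058158.1 and AABR07021996.1 were higher by 1.53, 2.03 and 2.07, AABR07025386.1 was lower by 2.36 ± 0.29, a log2 fold change of -2.36, and Rfwd3 stood at -0.40, or at -0.09 with no call when total counts alone were used (adjusted p = 0.575). AABR07011996.1 was called only in this comparison, at -0.54 ± 0.19 (adjusted p = 0.0249; exact permutation p = 0.0571), with 11.6, 10.2, 12.1 and 15.4 CPM in Sham and 8.45, 10.8, 7.18 and 7.39 CPM in treated rats, which overlap. That call was lost without Sham replicate 5 or treated replicate 4 or 5 (adjusted p 0.072 to 0.0878) or with total counts alone (-0.23, adjusted p = 0.286). LOC100912578 was at -1.81 ± 0.65 (adjusted p = 0.0257, exact permutation p = 0.0857). Its call was lost without Sham replicate 1 or 2 or treated replicate 2, 4 or 5, at -1.68 to -1.49 (adjusted p 0.0607 to 0.0768). The call was also lost with total counts alone (-1.5, adjusted p = 0.0609) and with limma-voom (-1.78, adjusted p = 0.0794). Without Sham replicates 1 and 2 together the value was -0.86 (adjusted p = 0.348).

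In all, 21 of the 30 members were called in at least 1 comparison and 9 in none, while 74.9% of all genes tested were called in at least 1. Beside AC134224.3, the uncalled members were AABR07021544.1, AABR07019209.1, LOC100909912, LOC102549506, AABR07051787.1, AABR07034669.1, LOC102551095 and AABR07069227.1. AABR07021544.1 averaged 25.2, 20.1 and 24.7 CPM in Sham, MI and treated rats, and a coding gene on the other strand inside its span, AABR07021544.2, was at 0 in every library. AABR07019209.1 lies inside the listed span of Mycbp2 (87506959 to 93868301) on the opposite strand. It averaged 10.5, 11.4 and 13.3 CPM while Mycbp2 averaged 65.5, 58.3 and 63.8 CPM. LOC100909912 starts 74 bases from Ncoa3, a nuclear receptor coactivator, on the opposite strand, and averaged 9.59, 8.18 and 7.49 CPM against 41.2, 41.7 and 46.3 CPM for Ncoa3. LOC102551095 had every treated rat, at 5.76, 6.22, 6.16 and 6.82 CPM, above every MI rat, at 5.60, 3.24, 4.47 and 4.73 CPM, and was not called (edgeR adjusted p = 0.289). A call that is missing at this depth and number of rats does not show that a gene was equal in the groups.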

How the data were processed

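RNA-seq gene counts of 12 rat left ventricle samples (Sham, MI and iCarP+/Light+, 4 each) were used. The authors deposited whole-number counts per gene, raw and with no normalization. HISAT2, featureCounts and build rn6 are named in the submitters' processing notes, with versions and the strand setting not given in the sources used here. From these counts edgeR 4.0.16 (R 4.3.3) was run with TMM factors, filterByExpr at a minimum count of 10 and glmQLFit with 1 mean per group over all 12 libraries, and p-values were adjusted by Benjamini-Hochberg over 15101 genes, with a threshold of 0.05. SE is the log2 fold change divided by the root of F. Single members were also tested by a 2-sided exact permutation test of log2 CPM (prior count 2). The steps were tested on simulated counts.

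The members and lists were chosen with earlier results of these data known. Named were the 5 highest and 5 lowest called members without overlap per comparison, all called from MI to iCarP+/Light+, the 6 highest per kilobase, members in the list of known genes, members holding small RNA genes, 3 genes on each side of the threshold, 6 members near a coding gene, and for 3 members the 3 most similar coding genes within 1 megabase. Other neighbours (Hspa1b, Hand2, Ncoa3, Myc, Bach1, Mycbp2, Zbtb20 and Ttr), the remaining members and the promoter windows shown were chosen after their values were seen. Neighbours are genes of the deposited table. Sequences are from RefSeq (GRCr8), whose coordinates were not used. Intervals and floors would cover counting error only. Alternatives were DESeq2 size factors, total counts alone, DESeq2, limma-voom, other filters, removal of mitochondrial genes, the compared groups alone, a replicate block, each rat left out, other member thresholds and a fold threshold.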

Additional observations from a re-analysis of the deposited data

Results flagged for a closer look

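Each member was examined in each group of 4 rats for a single rat whose gap to its nearest neighbour took more of the group's range, on the log2 scale, than Dixon's 95% critical value for 4 samples. Of 90 groups 3 did, and chance gives about 4.5. In AABR07072236.1, Sham replicate 5 was lowest at 35.9 CPM against 38.0 to 38.4 CPM in the other Sham rats (gap 0.8336 of the range). In Rfwd3, Sham replicate 2 was highest at 16.1 CPM against 13.6 to 14.0 CPM (gap 0.8293). In LOC100912578, iCarP+/Light+ replicate 1 was highest at 5.32 CPM against 1.81 to 1.96 CPM (gap 0.9271). The low and high pairs of Sham rats at the AC134224 genes are not found by a search for a single distant rat.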

How the results depend on the processing

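Over 9 other settings of the fit, 378 of 413 single-gene values stayed on the same side of 0 and of the threshold, 33 lost the call, 1 gained it and 1 changed sign (Tug1 from Sham to MI, 0.28 with total counts alone, where the median of all genes was 0.52). Leaving out each rat kept 503 of 564, with 58 calls lost, 3 gained and no change of sign. Sham replicates 3 and 5 were left out together after the data were seen, and AC134224.3 then stood at 1.16 from Sham to MI. Where no cause is given it was not tested.

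With total counts alone, 16 members were higher and 5 lower from Sham to MI, 5 were lower from Sham to iCarP+/Light+, and the members' median log2 fold changes were 0.53, -0.07 and 0.36 (Sham to MI, MI to iCarP+/Light+, Sham to iCarP+/Light+) against 0.52, -0.25 and 0.33 over all genes. With only the compared groups, the median from Sham to MI was 0.09, and 5 members were higher and 1 lower from MI to iCarP+/Light+. A minimum of 10 counts in every sample left 5 higher there, in a table with fewer members. Taken at a mean raw CPM of 3 or more, the list held 51 genes, of which 13 were higher (25.5%) and 15 lower (29.4%) from Sham to MI, and 15 higher (29.4%) and 16 lower (31.4%) from Sham to iCarP+/Light+. In treated rats against MI, 9 were higher (17.6%) and 4 lower (7.84%). At 10 or more it held 18, of which 7 were higher (38.9%) in each of the 3 comparisons, with 5 (27.8%), 4 (22.2%) and 2 (11.1%) lower in the same order. Over all genes the shares were 30.2% and 33.6%, 33.5% and 33.0%, and 11.6% and 2.01%. A log2 fold change of at least 1 in size left 1 lower from MI to iCarP+/Light+ and 5 lower from Sham to iCarP+/Light+. Without both Sham rats 3 and 5, 5 were lower from Sham to MI. Without the 3 members that carry protein-coding names or descriptions, 1 was lower from MI to iCarP+/Light+.

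With 1 rat left out in turn, the members higher and lower numbered 9 in every fit and 7 to 9 from Sham to MI, 2 to 9 and 1 to 3 from MI to iCarP+/Light+, and 9 to 10 and 6 to 8 from Sham to iCarP+/Light+. The medians ran from -0.15 to 0.05, from 0.13 to 0.23 and from -0.01 to 0.15.

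The replicate numbers did not pair the samples, since same-numbered rats of different groups correlated at -0.15 to 0.0654 in their deviations from the group means. With the replicate number as a block, 8 members were higher and 8 lower from Sham to MI, 4 higher and 1 lower from MI to iCarP+/Light+, and 9 higher and 5 lower from Sham to iCarP+/Light+, where the median was 0.19. Single calls absent with the block were AABR07041096.1 from Sham to MI (adjusted p = 0.0523), AABR07021996.1, LOC108349594, AABR07038983.1, LOC100912578, AABR07016572.1 and Rfwd3 from MI to iCarP+/Light+ (0.0569, 0.0932, 0.0995, 0.129, 0.139 and 0.14) and Rfwd3, AABR07011996.1 and LOC100912578 from Sham to iCarP+/Light+ (0.0511, 0.0533 and 0.0981). Their log2 fold changes with the block, in that order, were 1.87, then 1.04, 0.72, 1.06, -2.11, 1.49 and -0.4, then -0.37, -0.61 and -1.51.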

Other observations

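Below the threshold, 137 further lincRNA genes could be tested. From Sham to MI, 33 of them were higher and 36 lower at an edgeR adjusted p under 0.05, or 24.1% and 26.3%, against 30.2% and 33.6% over all genes tested. In iCarP+/Light+ rats against MI, 11 were higher and 2 lower, or 8.03% and 1.46%, against 11.6% and 2.01% of all genes. From Sham to iCarP+/Light+ rats 41 were higher and 40 lower, or 29.9% and 29.2%, against 33.5% and 33.0%. Their median log2 fold changes were -0.07, 0.11 and 0.19. Together, all lincRNA genes took 0.0616% to 0.0962% of the counts of a Sham library, 0.0732% to 0.092% of an MI library and 0.105% to 0.13% of an iCarP+/Light+ library, of which the AC134224 genes are a part.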
